A study of Mus musculus with 2 samples.

Results

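Some chromatin loop anchors in HPC5 cells carried several loops. A loop anchor is the bin of 5, 10 or 25 kb at either end of a loop. Anchors with identical chromosome, start and end were counted over the medium-setting loop lists of both replicates added together, and the anchors described here were selected on that count. Those with 3 or more loops numbered 202 of 12263 distinct anchors, or 1.65%. Just outside the threshold lay 1316 anchors with 2 loops, just inside it 179 with exactly 3, and 10745 anchors had 1 loop. Because the loop counts chose these anchors, the counts are a description and were not tested. A pair of anchors joined in both replicates adds 2 loops to each of its ends.

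Both samples were HPC5, a haematopoietic progenitor line derived from mouse bone marrow, with the genotype Etv6+/+, and carried the numbers 1 and 2. There was no mutant, treated or control sample, so no comparison here is between conditions, and the line is a culture rather than the tissue. Whether the replicates were separate cultures is not labelled, and their differences may be technical. Replicate 1 contributed 1276 loops (202 on 10 kb and 1074 on 25 kb anchors) and replicate 2 contributed 5729 (986 on 5 kb, 2368 on 10 kb and 2375 on 25 kb anchors). Reads and contacts are not totalled in the lists, and the depth behind each loop is unknown.

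Hi-C ligates and sequences pieces of chromatin that touch in the nucleus, and a loop is a pair of sites that meet more often than their neighbourhood does. Many mammalian loops are formed by cohesin, a ring-shaped complex that extrudes DNA until CTCF stops it, and others join promoters to enhancers or to each other. An anchor with several partners can stand for sites that meet at the same time or for different pairs in different cells, which population Hi-C cannot tell apart.

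No genome sequence was used, so the anchors themselves cannot be printed. The RefSeq promoter windows (GRCm38.p6, 250 bases before to 50 after a gene start) held 71 windows of 64 genes within these anchors. Those shown first belong to the inflammatory genes described below. Tnfaip3 encodes A20, a ubiquitin-editing enzyme that restrains NF-kB, and Cxcl2 encodes a chemokine that attracts neutrophils. Their windows are chr10:19015361-19015660 on the minus strand and chr5:90903649-90903948 on the plus strand, and capitals mark the NF-kB letters GGANTTTCC.
Tnfaip3: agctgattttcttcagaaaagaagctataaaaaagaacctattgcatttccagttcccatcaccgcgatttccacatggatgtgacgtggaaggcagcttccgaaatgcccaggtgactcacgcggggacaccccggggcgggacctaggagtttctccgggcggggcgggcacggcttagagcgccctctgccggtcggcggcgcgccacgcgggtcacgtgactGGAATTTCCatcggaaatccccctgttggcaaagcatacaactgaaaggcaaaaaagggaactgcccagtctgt
Cxcl2: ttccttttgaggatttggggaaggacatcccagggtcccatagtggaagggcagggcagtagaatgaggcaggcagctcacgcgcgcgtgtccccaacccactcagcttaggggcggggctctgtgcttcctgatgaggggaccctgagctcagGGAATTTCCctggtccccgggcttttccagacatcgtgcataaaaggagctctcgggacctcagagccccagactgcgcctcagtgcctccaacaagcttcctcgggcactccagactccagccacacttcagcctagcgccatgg
Both windows held the same 9 letters, GGAATTTCC, on the strand of the gene. They began 24 bases before the start of Tnfaip3 and 96 bases before that of Cxcl2. These were the only 2 of 71 windows with the letters on either strand (2.82%, 95% Wilson interval 0.776 to 9.70%), against 272 of all 21045 windows (1.29%). All windows together covered 17274 genes. The interval spans the share of all windows.

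Letters of the ETS family, CCGGAAGT, to which ETV6 belongs, were in 3 of the 71 windows (4.23%, 1.45 to 11.7%), those of Cnot10, Gm1070 and Trmt10b, against 5.20% of all windows. Cnot10, a gene of the CCR4-NOT complex that shortens mRNA tails, is shown because its window (chr9:114640151-114640450, minus strand) held the letters at 2 places. One match lay on each strand, 15 and 89 bases before the start.
Cnot10: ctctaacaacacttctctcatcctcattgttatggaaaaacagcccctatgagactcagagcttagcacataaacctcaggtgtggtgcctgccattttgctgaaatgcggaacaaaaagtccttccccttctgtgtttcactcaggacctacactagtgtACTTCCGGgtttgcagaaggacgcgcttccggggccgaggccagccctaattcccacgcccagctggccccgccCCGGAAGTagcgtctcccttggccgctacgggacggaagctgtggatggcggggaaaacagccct
The anchor with the most loops held histone genes, and 2 of their windows are shown for the CCAAT and TATAAA letters known from histone promoters. They are chr13:22035571-22035870 and chr13:22042948-22043247, both on the plus strand.
H2bc12: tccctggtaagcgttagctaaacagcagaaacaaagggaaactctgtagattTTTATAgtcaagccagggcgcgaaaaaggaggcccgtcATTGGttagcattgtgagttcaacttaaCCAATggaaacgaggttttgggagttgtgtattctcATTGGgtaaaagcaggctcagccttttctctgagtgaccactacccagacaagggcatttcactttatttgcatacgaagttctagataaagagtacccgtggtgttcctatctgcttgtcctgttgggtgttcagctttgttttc
H2bc11: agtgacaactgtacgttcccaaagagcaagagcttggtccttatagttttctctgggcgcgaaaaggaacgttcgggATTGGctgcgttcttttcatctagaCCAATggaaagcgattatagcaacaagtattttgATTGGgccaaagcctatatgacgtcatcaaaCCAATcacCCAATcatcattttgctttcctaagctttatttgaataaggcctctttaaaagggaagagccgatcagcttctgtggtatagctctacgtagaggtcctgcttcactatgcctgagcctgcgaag
The window of H2bc12 held CCAAT at 3 places over both strands and TATAAA at 1, on the opposite strand. The window of H2bc11 held CCAAT at 5 places. CCAAT was in 8 of the 9 histone windows at these anchors and in 45 of all 53 clustered histone windows, against 45.1% of the 71 windows and 38.5% of all windows. TATAAA was in 4 of the 9 and in 30 of the 53, against 11.3% and 12.7%. The 9 windows are not separate stretches of DNA. Those of H2ac12 and H2bc12 overlap, as do those of H2ac11 and H2bc11 and of H2ac13 and H2bc13. Letters in an overlap count in both windows, as the TATAAA of H2ac12 and H2bc12 does. The core of the CTCF motif (CCA, 2 free letters, AG, 2 free letters, GGC) was in 3 windows, those of Clec4g, Senp2 and Twsg1. This share was 4.23% (1.45 to 11.7%), an interval that spans the 2.37% of all windows. A stricter form with GGGGGC at its end was in none, against 0.418%. Each set of letters was searched on both strands, and none overlaps another in the printed windows. All but the CTCF letters were chosen after the data had been seen. Median GC content was 56.7% in the 71 windows and in all windows. A match shows the letters and not that a factor binds there.

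The clustered histone genes, whose products package DNA and are made in bulk when cells divide, stood at the anchor with the most loops. It lay at chr13:22025001-22049999, held H2ac11, H2ac12, H2bc11, H2bc12 and H4c9, and had 6 loops to 6 different partners, 1 loop in replicate 1 and 5 in replicate 2. On its right the partners lay 1400, 1475, 1500 and 1725 kb away, and on its left 200 and 325 kb away. Those at 1475 and 1500 kb are neighbouring bins, so the 6 partners formed 5 separate stretches. The partner at 1500 kb held H2ac10, H2bc9, H3c7, H3c8 and H4c8, and the one at 1725 kb held H1f1, H2ac4, H3c1, H3c2, H4c1 and H4c2, so that loops bridged the separate parts of the histone gene region. The partner 200 kb to the left held H2ac24, H4bc24 and H4c18. The one 325 kb to the left, chr13:21700001-21724999, held H2ac13, H2bc13, H2bc14 and H3c10 beside the olfactory receptor gene Olfr1359, and itself had 3 loops, all in replicate 2. Its other loops ran 550 kb to the left and 1725 kb to the right.

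**Figure D1:**
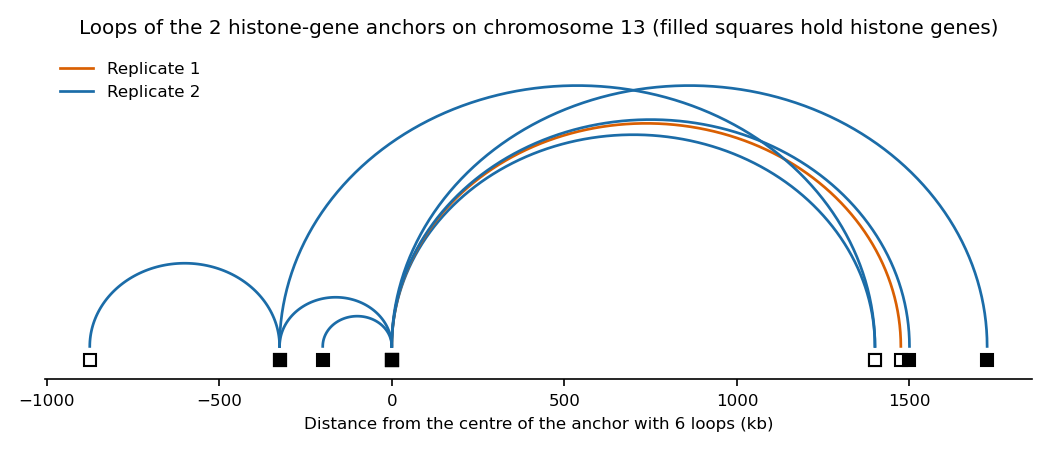
Loops of the 2 histone-gene anchors as arcs over the distance in kb from the centre of the anchor with 6 loops, with arc height proportional to span and colour for the replicate. Filled squares are anchors with histone gene ends and open squares anchors without, and 5 of 9 partner entries held such genes.

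The number n, an undefined whole number that the authors' files attach to each loop, was 17 for the replicate 1 loop of the anchor with 6 loops, and 28, 38, 39, 45 and 54 for those of replicate 2. These were low among loops of the same replicate and width, with a median percentile of 17.7. At the other histone anchor the median percentile was 9.85. Of 57 clustered histone genes, 9 had an end in an anchor with 3 or more loops (15.8%), and 25 (43.9%) had one in any anchor. Over all protein-coding genes 105 of 21521 did so, or 0.488%, and 4851 (22.5%) in any anchor. All 9 histone genes lay in the same 2 anchors, so they stand for 2 places and not 9. Reads of near-identical histone genes can be assigned to the wrong copy, and how such reads were treated is not given in the sources used here.

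Inflammatory and interferon genes had 3 members in these anchors. Of 61 inflammatory genes Tnfaip3 and Cxcl2 had an end in one (3.28%), against 0.488% of all protein-coding genes, while 26 (42.6%) had an end in any anchor, against 22.5%. Of 45 interferon genes Aim2 alone did (2.22%), and 9 in any anchor. Like the other gene lists here, these were chosen with earlier results of these data known, so their shares are a description. Tnfaip3 at chr10:19010001-19019999 had 4 loops, all in replicate 2, to partners 60 kb on its left and 50, 80 and 170 kb on its right (n of 51, 46, 57 and 39). None of the partners held a protein-coding gene end. Its reach was short, with a median span of 70 kb against 170 kb for the median of the 41 anchors of its width.

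Cxcl2 at chr5:90900001-90909999 had 3 loops, also all in replicate 2, and all to the left. The partner 120 kb away held Cxcl3, a related chemokine gene, and those 210 and 240 kb away held no gene end (n of 29, 30 and 28). Aim2, a sensor of DNA in the cytosol, shared chr1:173450001-173474999 with Ifi206, a gene of the same interferon-inducible family. A partner 275 kb to the right held Ifi204 and Ifi207 of that family (n of 48 in replicate 2). The next partner, 650 kb away, held the olfactory receptor genes Olfr231 and Olfr427 and was joined in both replicates (n of 23 in replicate 1 and 59 in replicate 2). The last lay 1000 kb away and held none. An anchor with no gene end 2207 bp from Ifnb1, the interferon beta gene, at chr4:88525001-88549999, had 4 loops, all to the left, 125 kb to Focad and Hacd4 in replicate 1 and 200, 500 and 1175 kb in replicate 2. The partner at 500 kb held Mllt3, a gene of transcription elongation.

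A 10 kb anchor joined over 50 kb to that of Jun, an AP-1 transcription factor gene, was among those with the shortest loops. It lay at chr4:95100001-95109999, and its loop to the Jun anchor was called in both replicates (n of 19 in replicate 1 and 35 in replicate 2). Its remaining loop ran 50 kb the other way in replicate 2 (n of 45).

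Regulators of blood stem and progenitor cells had 4 of 58 genes in anchors with 3 or more loops (6.90%, against 0.488% of all genes), in 3 places, and 31 (53.4%, against 22.5%) in any anchor. This list too was chosen with earlier results of these data known, so its shares are a description. Ikzf2, the gene of the lymphoid transcription factor Helios, lay at chr1:69675001-69699999 with loops to the left of 175 kb, called in replicate 2, and of 350 and 450 kb, called in replicate 1. Hoxa7 and Hoxa9, homeobox genes expressed in progenitors, shared chr6:52200001-52224999 with Hoxa3, Hoxa5 and Hoxa6. All 3 of its loops ran left in replicate 2, 200 and 350 kb to anchors with ends of Skap2, an adaptor of immune cell signalling, and 1000 kb to Gm38821 (n of 59, 50 and 24). Klf6, a zinc finger transcription factor gene, reached left by 275 kb in replicate 1 and by 1100 and 1200 kb in replicate 2, to partners without a gene end. Neither the Ikzf2 nor the Klf6 anchor had a partner called in both replicates.

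Further transcription factor genes, chosen after their values were seen, also had 3 loops each. Foxo1, whose factor is controlled by insulin signalling, was joined to partners 575, 725 and 1200 kb on its right, of which the one at 725 kb held Cog6 and the one at 1200 kb held Nhlrc3 and Proser1. Bcl6, a repressor of germinal centre B cells, reached 225, 650 and 1075 kb to the right and Maf 325, 625 and 950 kb to the left, with no gene end at any partner. Ahr, the aryl hydrocarbon receptor gene, reached 150 and 300 kb to the right and 225 kb to the left. Each of these 4 anchors had 3 different partners. The loops of Maf were all in replicate 2, while Foxo1, Bcl6 and Ahr had 1 loop each in replicate 1.

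Of 17 genes of loop extrusion and chromosome architecture (such as Ctcf and Rad21) none had an end in these anchors, and 7 had one in any anchor (41.2%). With 0.488% of all genes in these anchors, a list of this size is too short for its 0 to differ from that share. Of 413 numbered zinc finger genes none had an end in them, and 93 had one in any anchor (22.5%, against 22.5% of all protein-coding genes). At 0.488% of all genes this list too is small enough that its 0 is not read as a lack. Olfactory and vomeronasal receptor genes had 2 of 1461 (0.137%), Olfr1359 and Vmn1r4, and 37 (2.53%) in any anchor.

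The 23 anchors with 4 or more loops comprised 18 of 25 kb and 5 of 10 kb. Of these 12 held a protein-coding gene end, 1 lay inside a gene without holding an end, and 10 touched no gene. In 21 both replicates contributed loops, and in 16 all partners lay on the same side. Of the 12 with a gene end, 8 held a gene start with a promoter window. A gene said here to reach a partner has either end in the anchor, not always its start.

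**Figure D2:**
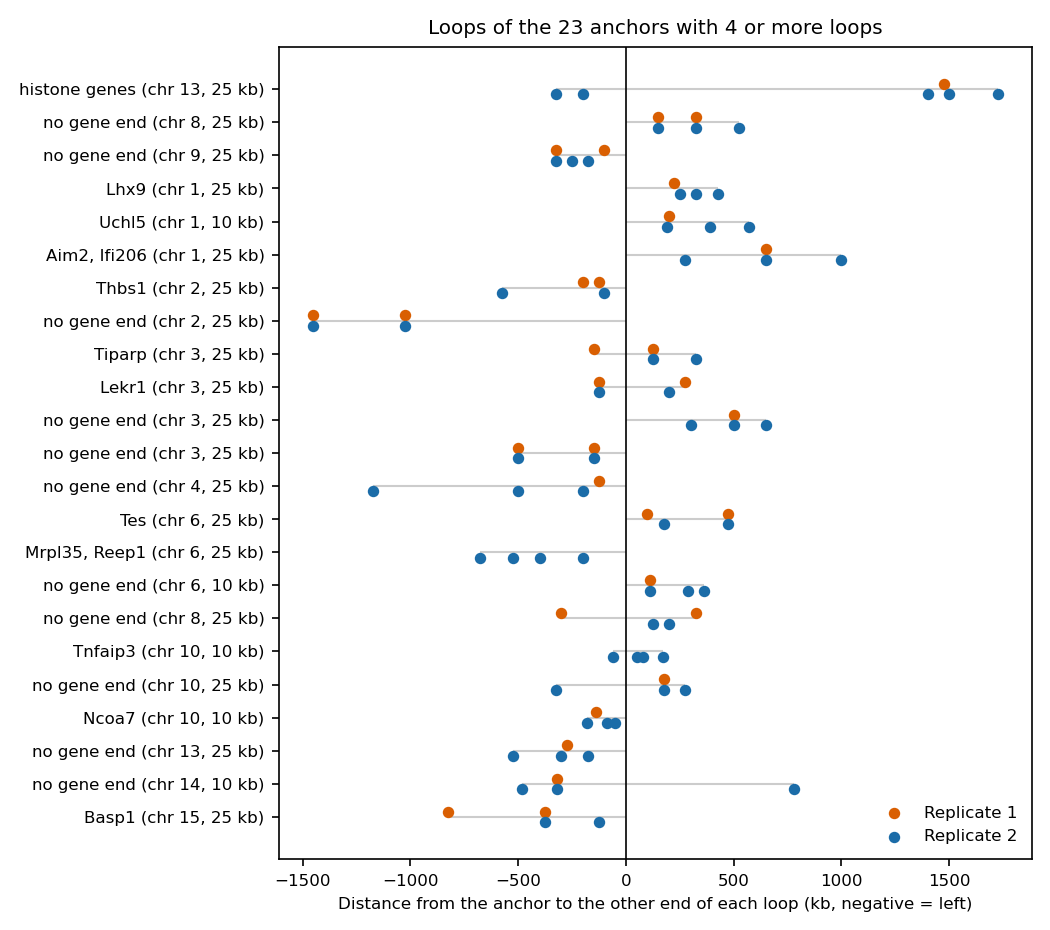
Each row is 1 of the 23 anchors with 4 or more loops, and each point the other end of a loop, by its distance in kb from the anchor and its replicate. Distances run to 1725 kb, and all points of 16 rows lie on 1 side of the anchor.

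Lhx9, a LIM homeobox gene of gonad development, lay whole within chr1:138825001-138849999. It reached only rightward, to 225 kb in replicate 1 and to 250, 325 and 425 kb in replicate 2 (n of 33, 110, 78 and 50). The 225 and 250 kb partners are neighbouring bins, so the replicates placed the nearest loop 1 bin apart. Uchl5, the gene of a proteasome-associated deubiquitinase, reached Rgs2, a gene that limits G protein signalling, from chr1:143800001-143809999, 190 kb away in replicate 2 and 200 kb in replicate 1. It reached on to partners 390 and 570 kb away in replicate 2, which each had 3 loops of their own and lay nearest to Rgs13 and Rgs1. The 25 kb anchor over the same start, chr1:143800001-143824999, was also kept, with loops of 100, 375 and 575 kb. These 2 were the only anchors of the 202 to overlap each other.

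Tiparp, which encodes an ADP-ribosyltransferase induced through AHR, and Lekr1 were joined to each other 125 kb apart in both replicates (n of 36 in replicate 1 and 104 in replicate 2). Both were also joined to chr3:65850001-65874999 in replicate 2, over 325 kb (n = 69) and 200 kb (n = 68), which closed a triangle of anchors with 3 or more loops each. Tiparp also reached 150 kb left to Kcnab1 and Ssr3 and Lekr1 275 kb right to Ccnl1, each in replicate 1. Tes, a focal adhesion gene, reached Cav2, a caveolin gene, 175 kb away in replicate 2 (n = 139), and an anchor 475 kb away in both replicates (n of 30 in replicate 1 and 93 in replicate 2). Thbs1, the gene of the matrix glycoprotein thrombospondin 1, reached left by 125 and 200 kb in replicate 1 and by 100 and 575 kb in replicate 2, with no gene end at a partner. Its partners at 100 and 125 kb are neighbouring bins.

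Ncoa7, a nuclear receptor coactivator gene, had short loops from a 10 kb anchor, 1 in replicate 1 (140 kb) and 3 in replicate 2 (50, 90 and 180 kb, the last to Hint3). Basp1, the gene of a membrane-bound signalling protein of neurons, reached left by 375 kb in both replicates, by 125 kb in replicate 2 and by 825 kb in replicate 1. Mrpl35, a mitochondrial ribosomal protein gene, and Reep1, whose protein shapes the endoplasmic reticulum, shared an anchor with 4 loops to the left of 200, 400, 525 and 675 kb, all in replicate 2. The partner at 525 kb held Gm1070 and Krcc1, and those at 400 and 525 kb had 3 loops each.

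Anchors without a gene end also had many loops. The 2 with 5 loops were of this kind. The anchor chr8:61525001-61549999 lies inside Palld, the gene of the actin-binding protein palladin, and was joined in both replicates to anchors 150 kb away (n of 31 in replicate 1 and 99 in replicate 2) and 325 kb away (n of 20 and 49), and in replicate 2 to Anxa10, 525 kb away. The partners at 150 and 325 kb were themselves joined over 175 kb in replicate 2. The anchor chr9:116375001-116399999, nearest to Rbms3, reached left by 100 and 325 kb in replicate 1 and by 175, 250 and 325 kb in replicate 2.

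Some of the longest loops started away from genes. From chr4:6550001-6574999, nearest to Nsmaf, 3 loops of replicate 2 ran 1300, 1450 and 1800 kb to the right, and the last was the longest of all 576 loops described here. On chromosome 2 the anchor chr2:137925001-137949999 was joined in both replicates to partners 1025 kb and 1450 kb to its left, each with 3 loops of its own. It lay 306585 bp from Btbd3, the nearest gene. The anchor chr10:26700001-26724999 also touched no gene and reached 175 kb right in both replicates (n of 51 in replicate 1 and 157 in replicate 2), 275 kb right to Lama2 and 325 kb left to L3mbtl3. Gemin8, a gene of the SMN complex on the X chromosome, had partners 350 and 1075 kb to the right, the second holding the RNA sensor gene Tlr8, and 1625 kb to the left.

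Across all 202, 161 anchors were 25 kb wide (2.84% of 5668 such anchors), 41 were 10 kb wide (0.877% of 4676) and none was 5 kb wide (0 of 1919). They took 633 loop ends of 576 deposited loops, which is 8.22% of 7005, and led to 519 different partners. Loops came from both replicates at 151 anchors, from replicate 2 alone at 51 and from replicate 1 alone at none. In replicate 1 alone no anchor had 3 loops, 38 of the 202 had 2 and 113 had 1. In replicate 2 alone 64 had 3 or more. Since a pair called in both replicates counts for each, 74 of the 202 had 2 different partners, 117 had 3, 10 had 4 and 1 had 6. When partners that touch each other were joined, 108 still had 3 or more. The members were on every chromosome analysed, from 3 of 445 anchors on chromosome 17 (0.674%) to 20 of 658 on chromosome 13 (3.04%), with 4 of 279 on the X chromosome.

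In 156 of 202 anchors all partners lay on the same side (77.2%, 71.0 to 82.5%), left in 81 and right in 75, and 46 had partners on both sides. Among the 128 with 3 or more different partners 93 were one-sided (72.7%, 64.4 to 79.6%), against 841 of 1016 anchors with 2 loops to 2 partners (82.8%, 80.3 to 85.0%). Fewer partners leave fewer ways to be two-sided, so these shares are not on equal terms. Among 45 anchors whose gene starts with a promoter window were all on 1 strand, the partners lay downstream of the gene in 20, upstream in 14 and on both sides in 11.

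Loops at these anchors were longer than other loops, with a median span of 250 kb (quartiles 150 and 450 kb, n = 576) against 150 kb (100 and 260 kb, n = 6429). The order was the same within each width and replicate. On 25 kb anchors the medians were 250 against 175 kb in replicate 1 and 325 against 225 kb in replicate 2, and on 10 kb anchors 140 against 110 kb in replicate 1 and 160 against 120 kb in replicate 2. Spans of 500 kb or more made up 23.1% (19.8 to 26.7%) of loops at these anchors and 8.82% (8.15 to 9.54%) of the others. On 25 kb anchors the shares were 28.0% (24.0 to 32.3%) and 14.1% (12.9 to 15.3%), while on 10 kb anchors they were 4.92% (2.27 to 10.3%) and 5.72% (4.87 to 6.71%), intervals that overlap. At least 1 loop of 500 kb or more was found at 86 anchors and 1 of 1000 kb or more at 25.

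**Figure D3:**
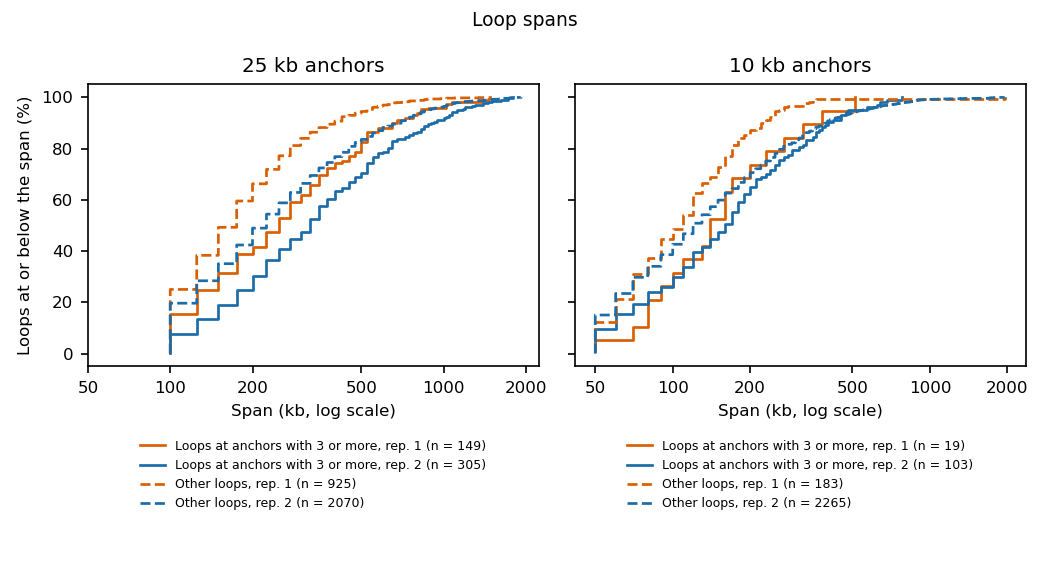
Cumulative share of loops (%) by span (kb, log scale) for 25 kb anchors on the left and 10 kb anchors on the right. Solid lines, loops at anchors with 3 or more, lie to the right of the dashed lines of other loops over most of the range, with medians of 300 against 200 kb at 25 kb and 160 against 120 kb at 10 kb.

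Between groups of loops n was compared as a rank within a replicate and width, where 50 is the middle. On 25 kb anchors loops at anchors with 3 or more had a median rank of 40.5 against 53.2 for other loops in replicate 1 and of 48.9 against 50.4 in replicate 2. On 10 kb anchors the ranks were 46.0 against 46.0 in replicate 1 and 59.3 against 47.7 in replicate 2. The 70 anchor pairs at these anchors that both replicates called had a higher n in replicate 2 in all 70, by a median factor of 2.72. In the high-setting lists, which hold no loop on 25 kb anchors, 122 of the 576 loops appeared (21.2%), against 3434 of 6429 others (53.4%). The 122 are all the loops at these anchors on 10 kb bins, so the shares follow the widths.

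Protein-coding gene ends were no more frequent, beyond counting error, at anchors with 3 or more loops. They lay in 74 of 202 (36.6%, 30.3 to 43.5%), against 41.0% (38.4 to 43.7%) of anchors with 2 loops, 35.4% (34.5 to 36.3%) of those with 1 and 36.0% of all anchors. Within the 25 kb anchors the share was 38.5% (31.3 to 46.2%), against 47.5% (44.2 to 50.8%) with 2 loops and 45.7% (44.3 to 47.2%) with 1. Within the 10 kb anchors it was 29.3% (17.6 to 44.5%), against 29.7% and 30.3%. Gene starts on 25 kb anchors were at 26.4% (20.2 to 33.8%), 26.6% and 26.8%. Starts were counted only for genes with a promoter window, so these shares are undercounts. Maf, for example, lay whole within its anchor without a counted start. Some part of a gene body lay in 62.9% of the anchors with 3 or more loops, against 68.0% of all anchors. On 25 kb anchors this share was 66.5% (58.9 to 73.3%), against 73.6% (70.6 to 76.4%) with 2 loops and 73.2% (71.9 to 74.5%) with 1. On 10 kb anchors it was 48.8% (34.3 to 63.5%), against 61.8% (56.8 to 66.6%) with 2 loops and 65.6% (64.2 to 67.0%) with 1, and the intervals of 3 or more and of 1 loop do not overlap. Anchors with no gene within 100 kb made up 15 of the 202 (7.43%, 4.55 to 11.9%) and 490 of the other 12061 (4.06%, 3.72 to 4.43%), and the farthest lay 723 kb from Cited2.

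Of the 74 anchors with a gene end 53 held a single gene, and 50 had a gene end at a partner. Of the 128 without one, 53 lay inside a gene and 75 touched none, and 86 had a gene end at a partner. With partners counted at each anchor, a gene end stood at 80 of 206 for the first kind (38.8%) and at 117 of 339 for the second (34.5%). Over all distinct anchors the share was 36.0%, with 45.8% at 25 kb and 30.3% at 10 kb. The counts of 50 and 86 have no such share beside them. Neither the anchor nor any partner held a gene end in 42 cases, and all of them did in 14. These counts too have no such share beside them and are not read as a trait of these anchors.

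Domain boundaries, deposited apart from the loops, were more frequent near anchors with more loops. Of the 339 domains listed in replicate 2 (replicate 1 lists 3), a boundary lay within 25 kb of 37 of the 202 anchors (18.3%, 13.6 to 24.2%), against 12.4% (10.7 to 14.3%) of anchors with 2 loops and 7.77% (7.28 to 8.29%) of those with 1. The order held on 25 kb anchors (18.01, 12.8 and 7.88%) and on 10 kb anchors (19.5, 12.5 and 7.96%). The intervals of anchors with 3 or more loops and with 1 loop do not overlap, while those of 3 or more and 2 do. A boundary lay inside 14 anchors (6.93%), against 2.59% of all anchors. Those with a protein-coding gene end were the anchors of Ikzf2, Hoxa9, Adam10, Tnfaip3 and Bbs10, and the others held none. In 11 of the 14 all partners lay on the side of the domain. In 3 they lay on both sides and in none only outside. For anchors with 2 loops the same held for 59 of 67 and for those with 1 loop for 221 of 236. The replicate 2 domains and the replicate 2 loops were made from the same sample, so they are not separate evidence. Whether linked methods called them is not given in the sources used here.

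**Figure D4:**
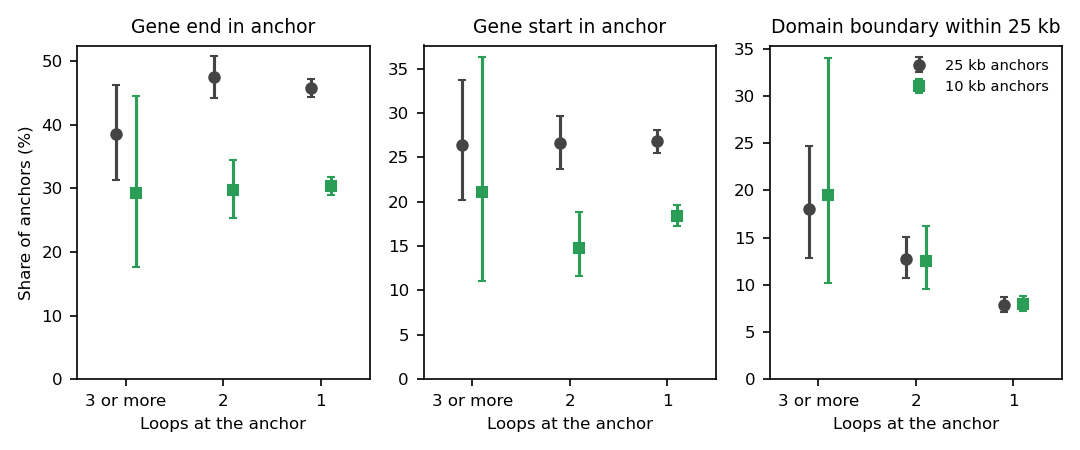
Share of anchors (%) with a protein-coding gene end, a gene start, or a replicate 2 domain boundary within 25 kb, by the number of loops at the anchor and by anchor width, with 95% Wilson intervals. Only gene starts with a promoter window were counted. Gene starts at 25 kb stay between 26.4 and 26.8%, while boundaries lie near 18.01% of anchors with 3 or more loops and 7.88% of those with 1.

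To read recurrence from a replicate that did not choose the anchors, they were chosen in replicate 2 alone. Of 64 anchors with 3 or more replicate 2 loops, 13 recurred with identical coordinates as an anchor in replicate 1 (20.3%, 12.3 to 31.7%). Replicate 1 has no 5 kb anchor, so loop numbers were compared within the 25 and 10 kb widths only. On 25 kb anchors the shares were 22.5% (12.3 to 37.5%) with 3 or more loops, 23.5% (19.6 to 27.9%) with 2 and 14.9% (13.8 to 16.1%) with 1. On 10 kb anchors they were 16.7% (6.68 to 35.9%), 5.92% (3.73 to 9.28%) and 2.59% (2.15 to 3.13%). With any overlap counted, 10 kb anchors recurred at 62.5% (42.7 to 78.8%), 49.8% (44.1 to 55.6%) and 27.4% (26.0 to 28.8%). The intervals for 3 or more and for 2 loops overlap in each case, which does not show that the shares are equal. Only 40 anchors of 25 kb and 24 of 10 kb had 3 or more replicate 2 loops. The intervals for 3 or more and 1 loop overlap on 25 kb anchors only.

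**Figure D5:**
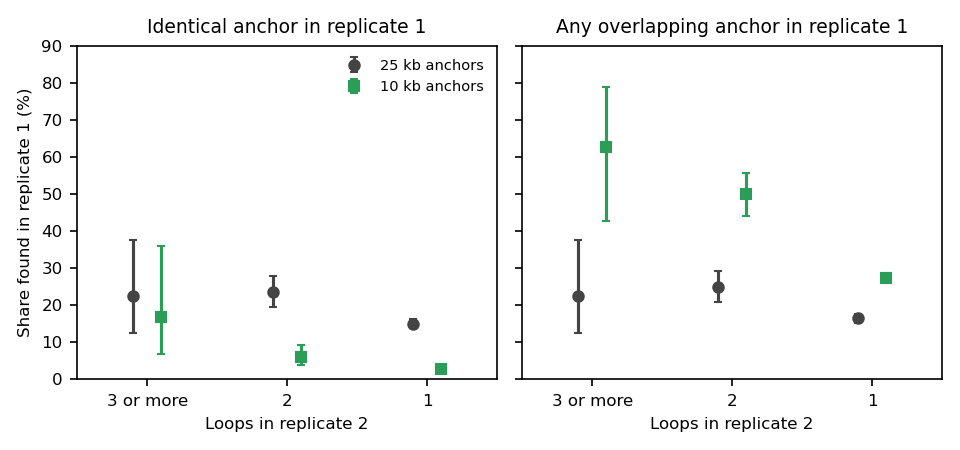
Share of replicate 2 anchors (%) found in replicate 1, with identical coordinates on the left and with any overlap on the right, by the number of replicate 2 loops and by width, with 95% Wilson intervals. At 10 kb the share with any overlap is 62.5% for 3 or more loops and 27.4% for 1, and at 25 kb the intervals overlap.

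Anchors with 3 or more loops were partly joined to each other. Of the 576 loops 57 joined 2 such anchors (9.90%, 7.72 to 12.6%), which placed 59 of the 202 in 25 groups. A pair called in both replicates adds 2 loops to both of its ends, so the choice of anchors itself favours such joins. With anchors chosen and read in replicate 2 alone the share was 3.70%. With partners counted at each anchor instead, 78 of 545 partners of these anchors had 3 or more loops themselves (14.3%). Counted in that way, 298 of 10745 anchors with 1 loop led to an anchor with 3 or more (2.77%). The groups had at most 4 anchors, and this size occurred on chromosomes 6 and 13. On chromosome 6 the 4 anchors began at 71150001, 71275001 (Gm1070 and Krcc1), 71400001 and 71800001 (Mrpl35 and Reep1), and 5 of their pairs were joined, which closed 2 triangles, each with the anchors at 71275001 and 71400001. On chromosome 13 the 2 histone anchors were joined in a chain of 3 pairs to anchors near Trim27 and inside Elmo1. The other 3 triangles with all pairs joined were those of Tiparp and Lekr1, of 3 anchors inside Palld, and of Lats2, a Hippo pathway kinase gene, with Sap18 and Ska3, and with Micu2, a gene of mitochondrial calcium uptake, on chromosome 14. In that last group Sap18 and Ska3 were joined to Micu2 over 100 kb in both replicates (n of 36 in replicate 1 and 129 in replicate 2). Among all pairs of partners of 1 anchor, 44 of 500 were joined by a loop of their own (8.80%, 6.62 to 11.6%), against 79 of 1016 for anchors with 2 loops (7.78%, 6.28 to 9.59%). Of the 519 different partners 298 had 1 loop, 162 had 2 and 59 had 3 or more.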

How the data were processed

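Hi-C was run on 2 samples of HPC5, 1 group, with the Arima kit, per the labels' protocols. HiC-Pro 2.11.1 and mm10 are named in the submitters' processing notes, and no loop or domain caller is named there (not given in the sources used here). The authors deposited, for each replicate, a medium-setting and a high-setting loop list and a domain list, each made from 1 replicate. The loop and domain positions are coordinates (bins), not counts or levels, and the whole number n of each deposited loop is not defined. It was used as a rank, summed to choose anchors to name, and compared between replicates at anchor pairs that both called. No column of values from another series was present.

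Each loop gave 2 anchors, and loop distances are between midpoints. Domain starts were moved by 1 base to count from 1. Genes were the 21521 protein-coding genes of RefSeq's GRCm38.p6 table on the 19 autosomes and X, with 345 genes of scaffolds left out (110 protein-coding). Gene starts and promoters came from RefSeq's promoter windows, with chromosome 18 not analysed here. These windows covered 17274 genes, so starts without a window were not counted. Shares carry 95% Wilson intervals, which cover counting error only and treat anchors as independent, which neighbouring ones are not. There was 1 group and no test between conditions was possible, so no p-value was computed.

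The anchors, gene lists and measures were chosen with earlier results of these data known. Genes named are all those in anchors with 4 or more loops and, at 3 loops, members of the lists and up to 30 in all by most partners and longest summed span. Anchors named are those with 4 or more loops and 5 each by longest loop, shortest median span, summed n and replicate 1 loops. Only some of these are described, and the rest are not reported here. The interferon entries Mx1 and Mx2 matched no gene. Alternatives are given in the closing section. Counting was tested on simulated loops. Python 3.11.15, pandas 2.3.3, numpy 2.4.6, scipy 1.17.1, networkx 3.6.1 and matplotlib 3.10.9 were used.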

Additional observations from a re-analysis of the deposited data

How the results depend on the processing

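No paired analysis was possible because there is 1 group. Of 47 alternatives 13 left a value within a set limit and 34 moved it. The limit was the Wilson interval for shares and a fixed factor for the number of anchors. For the span and the rank of n it was the standard deviation of the 2 replicates' medians (33.6 kb and 8.09). The number of anchors with 3 or more loops was 202, and 0 to 64 with 1 replicate left out, 64 from replicate 2 alone and 0 from replicate 1 alone. It was 128 with each anchor pair counted once, 108 with touching partners joined (chosen after seeing the data), 84 with matched replicate 1 loops left out, 41 in the high-setting lists, 977 with overlapping anchors merged, and 1518 and 23 at thresholds of 2 and 4 loops.

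The share with a gene end (36.6%) was 46.5% within 5 kb and 56.4% within 10 kb (50.9 and 59.9% of all anchors), 62.9% for gene bodies, 55.4% for all annotated genes (50.8% of all anchors), 29.3% on 10 kb anchors and in the high-setting lists, 52.2% at 4 loops, and, chosen after seeing the data, 25.4% for gene starts and 49.7% with anchors merged. The median span (250 kb) was 300 kb on 25 kb and 160 kb on 10 kb anchors, 290 kb without replicate 1, 160 kb in the high-setting lists, 200 and 300 kb at thresholds of 2 and 4 loops, and 190 kb with anchors merged. The one-sided share was 69.6% at 4 loops. The share of loops joining 2 such anchors (9.90%) was 20.2% with anchors merged, 3.70% without replicate 1 and 4.92% in the high-setting lists. Recurrence was 37.5% with any overlap. A boundary lay inside 6.93%, and within 5, 10 and 25 kb of 11.9, 13.9 and 18.3%. Over all anchors these shares were 2.59, 4.42, 5.81 and 8.44%. The strict CTCF letters were in 0% of windows. Without replicate 2 no anchor reached 3 loops, so the other results have no value there except the median rank of n, which for the replicate 1 loops of the 202 anchors was 40.5 against 47.7 for both replicates, and no share exists for 5 kb anchors. Why values moved was not tested. The depth, which is unknown, limits which loops could be called at all.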
